A study of Homo sapiens with 2 samples.

Results

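Semaphorins, plexins, neuropilins, ephrins and Eph receptors are families of guidance cues and their receptors. Their members were found on the array by name, as every probe that is not a control spot and whose gene name begins with SEMA and a digit, PLXN, EPHA, EPHB, EFNA or EFNB, or is NRP1 or NRP2. This gave 53 genes of the 30238 gene names on the array, measured by 91 of its 41000 probes. A2780 cells come from a human ovarian carcinoma. A2780CBN is A2780 selected in rising doses of carboplatin, a platinum drug that crosslinks DNA, up to 22.2 µM. A2780CBNDXL was selected in carboplatin together with docetaxel, a taxane that stabilizes microtubules, and the labels give 8.02 µM for the combination. In the study's text that concentration is the carboplatin part of the IC50 of the line, and not a selection dose. The docetaxel part of that IC50 is far lower. Both were compared with A2780CC, parental A2780 cells that were kept in culture beside a resistant line without the drugs, and the methods describe such a control for each line. The 2 lines and their controls thus share the A2780 background and the long culture, and the docetaxel line A2780DXL was not analysed here. For each line 3 RNA isolations went into a pool, which was hybridized with its control to 4 two-colour arrays. Arrays 1 and 3 carried the forward and arrays 2 and 4 the reverse labelling, with arrays 1 and 2 on slide 1 and arrays 3 and 4 on slide 2. Each line is therefore 1 sample, the SD over its 4 arrays holds the error of labelling and hybridization alone. Independent cultures were not measured, and no test over samples could be made.

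Semaphorins carry a sema domain and act mainly through plexins, whose cytoplasmic part switches off small GTPases of the Ras family and lets the cytoskeleton collapse. The class 3 semaphorins are secreted and most of them need a neuropilin as the ligand-binding subunit, whereas the other vertebrate classes are membrane-bound. Eph receptors are receptor tyrosine kinases that are activated by ephrins on a neighbouring cell, the EphA receptors mostly by the lipid-anchored ephrin-A ligands and the EphB receptors mostly by the transmembrane ephrin-B ligands, and the ephrins signal in reverse into the cell that carries them. These systems are best known from axon growth and vessel formation, and in carcinoma cells they take part in adhesion, spreading and migration.

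The log2 ratio of the processed signal of a resistant line over that of its control was averaged over the 4 arrays, and the brightest probe stood for a gene. A gene was changed when the mean ratio was at least 1 in size, which is a 2-fold difference, its sign did not differ among the 4 arrays, and at least one channel of the probe exceeded the background clearly on each of them. No p value belongs to this rule. The direction of all ratios rests on the forward arrays, which the dye entries and the array names place as control in Cy3 and resistant line in Cy5. The dye entries of the reverse arrays conflict with their names, and these arrays were turned over as their names state. Forward and reverse arrays of a line then correlated over all probes with r of 0.581 to 0.611 for A2780CBN, and of 0.727 to 0.739 for A2780CBNDXL. The results turn on a few probes, whose first 30 of 60 bases are shown in the sense of the transcript and in lower case.
SEMA6D, chr15:45853365-45853424 of NCBI36, plus strand: tctatgtgaccccagataacattttgtaac
PLXNC1, chr12:93224788-93224847, plus strand: acctcaaacaaacaaaactaccaaatagat
SEMA3E, chr7:82835164-82835223, minus strand: atgctgggacctatttttgccagacagtag
EPHB6, chr7:142278499-142278558, plus strand: caggacaacttctccaagtttggcctctgt
EPHB2, chr1:23113178-23113237, plus strand: tgagaacccctctgggaaaatctattcctg
They are shown because SEMA6D and PLXNC1 moved in opposite directions in the lines, SEMA3E had the lowest ratio of all members, and EPHB6 and EPHB2 had the highest ratio of any Eph receptor in A2780CBNDXL and in A2780CBN. An annotation of NCBI36 was not used here, so the exon or untranslated part that a probe lies in is not given.

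Of the 53 members, 38 could be tested in A2780CBN and 34 in A2780CBNDXL. The 15 members not tested in either line, for want of a signal above background on all arrays, were EFNA2, EFNA5, EPHA1, EPHA4, EPHA6, EPHA10, EPHB1, NRP2, PLXNA2, PLXNA4, PLXNB3, SEMA4D, SEMA5A, SEMA5B and SEMA7A. EPHA7, EPHA8, NRP1 and SEMA3C were tested in A2780CBN alone. In A2780CBN 11 members were changed, 3 higher and 8 lower than in the control, which is 28.9% of those tested beside 12.6% of all 17951 genes tested. By direction the shares of all genes were 8.0% higher and 4.55% lower. In A2780CBNDXL 15 members were changed, 7 higher and 8 lower, or 44.1% beside 16.9% of all 17116 genes tested, of which 7.70% were higher and 9.20% lower. The median log2 ratio of the tested members was 0.04 in both lines, beside -0.06 and 0.04 for all genes tested. The median size of the ratio was 0.50 and 0.81, beside 0.33 and 0.39 for all genes.

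Across both lines 19 members were changed in at least one. EPHA3, EPHA5, SEMA3A, SEMA3D and SEMA3E were changed in the same direction in both, which is 5 of the 34 members tested in both lines beside 4.00% of the 16131 genes tested in both. SEMA6D and PLXNC1 were changed in opposite directions, where the share of all genes was 1.83%. The remaining changed members passed in one line, and of these EPHA7 was not tested in A2780CBNDXL. The arrays of the lines share their slides, and the counts of both lines are given side by side for that reason. Many of these members are dim, and normexp background correction with an offset of 50 and loess normalization left 2 members changed in A2780CBN and 9 in A2780CBNDXL, beside 606 and 1176 of all genes. Those that no longer passed were EFNA3, EPHA5, EPHA7, EPHB2, PLXNC1, SEMA3A, SEMA3D, SEMA3E and SEMA6D in A2780CBN. In A2780CBNDXL they were EPHA5, EPHB4, PLXNA3, PLXNC1, SEMA3A and SEMA3D. A rule that asks for a signal above background in both channels left 5 and 11 members, beside 1511 and 1962 of all genes. The genes tested under these settings were not counted, so no shares are given. Whether the members still stand apart from all genes there was not tested.

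**Figure D1:**
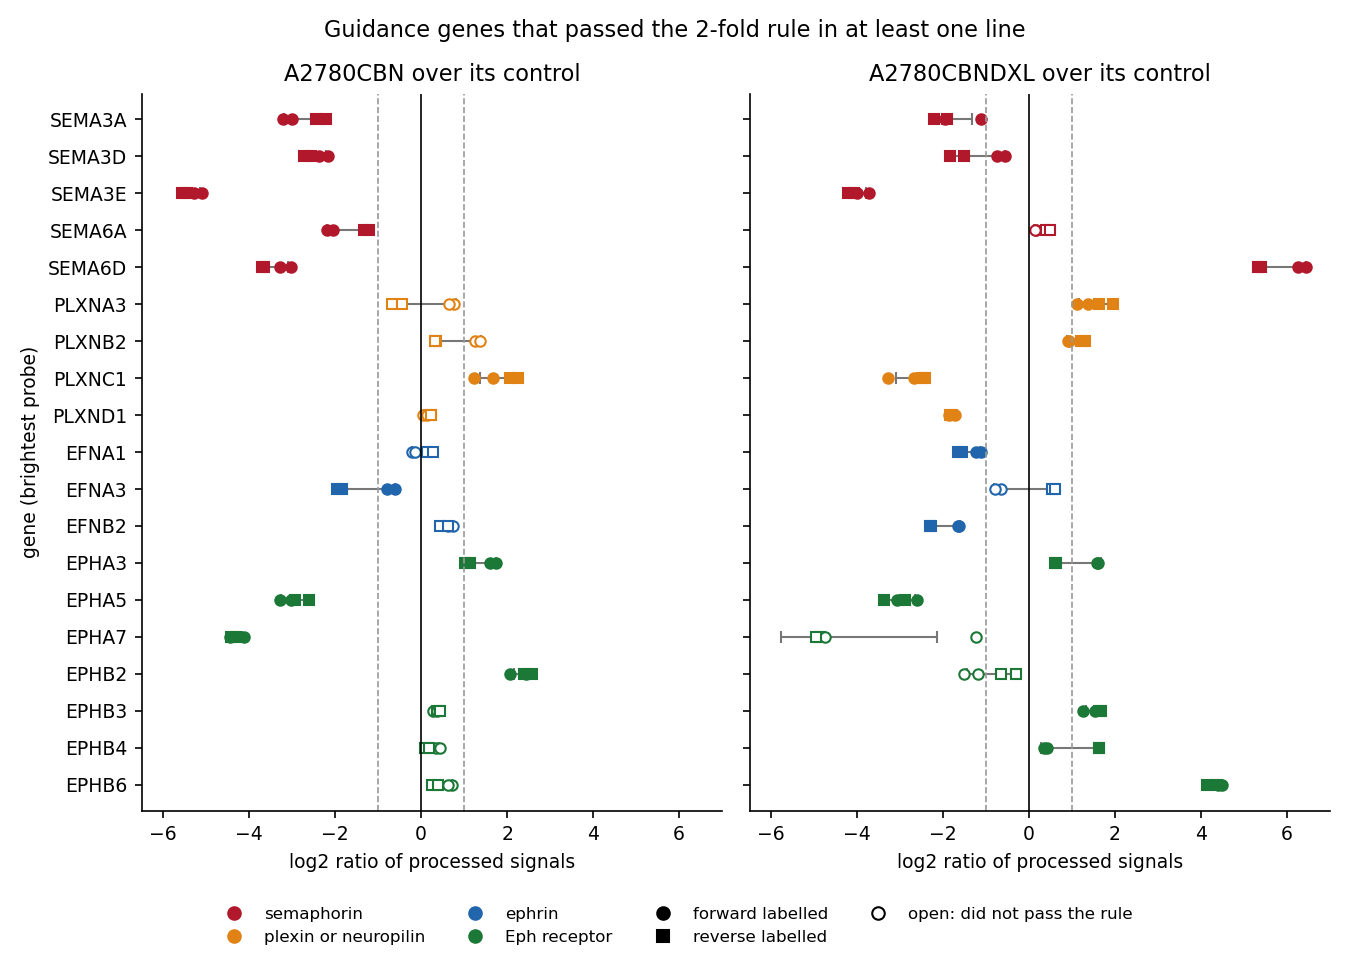
Log2 ratio of resistant line over control on each of the 4 arrays for the 19 members that passed the 2-fold rule in at least one line. Circles are forward and squares reverse labelled arrays, the grey bar is the mean ± SD of the 4 arrays, open symbols mark a line in which the member did not pass, and the dashed lines mark a ratio of 1 in size. SEMA6D lies at -3.41 on the A2780CBN side and at 5.86 on the other, and array 1 stands apart for EPHA7 in A2780CBNDXL.

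**Figure D2:**
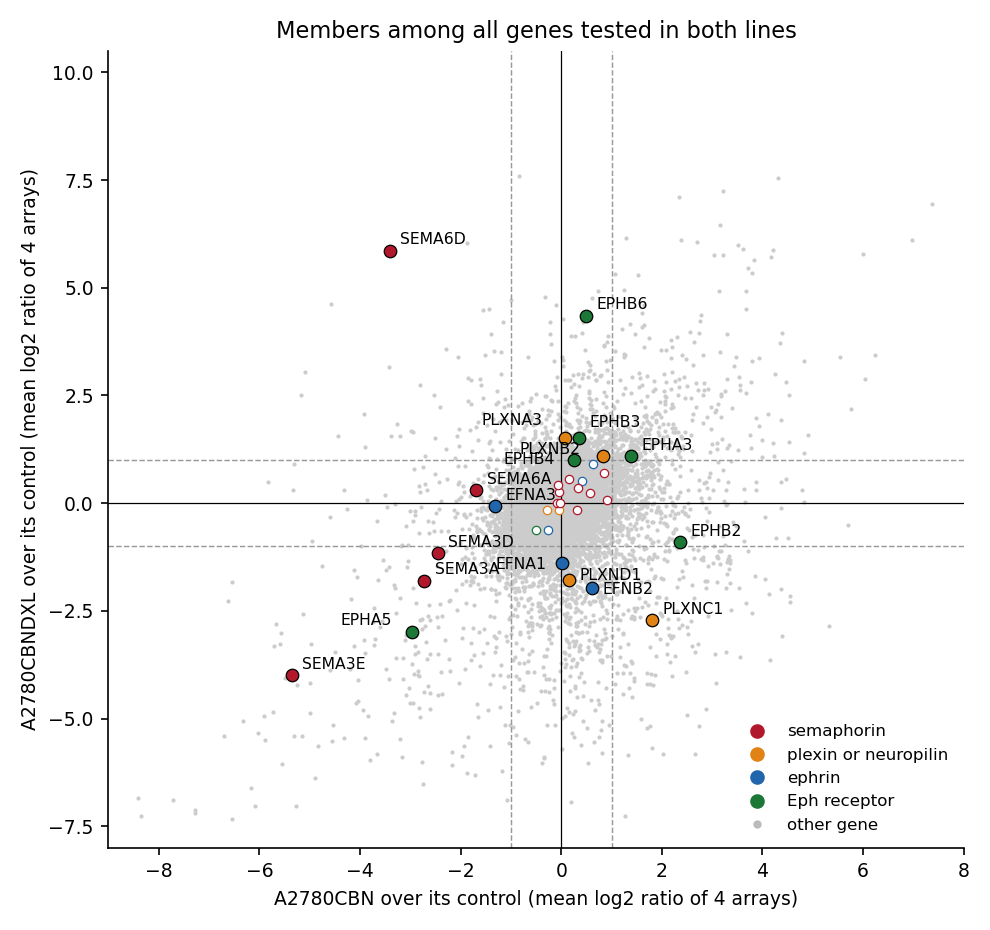
Mean log2 ratio in A2780CBN (x axis) and in A2780CBNDXL (y axis) for the 16131 genes tested in both lines (grey) and the 34 members among them (coloured by family, filled and named where changed in at least one line). SEMA6D and PLXNC1 lie in opposite corners, and SEMA3E lies lowest of the members in both lines.

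Among the ligands, all 7 class 3 semaphorins were tested in A2780CBN and 6 in A2780CBNDXL, and in each line SEMA3A, SEMA3D and SEMA3E were lower than in the control and none was higher. The other class 3 members that were tested had log2 ratios of -0.25 to 0.57 (A2780CBN) and -0.17 to 0.23 (A2780CBNDXL) and did not pass the rule. Against the control of the other line SEMA3E alone of these kept a lower ratio in A2780CBNDXL, as given with the direct comparison of the channels. In pooled RNA of a whole culture, fewer cells that express a gene and less of its RNA per cell cannot be told apart.

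SEMA3E, a ligand that binds plexin D1 without a neuropilin, had log2 ratios of -5.11, -5.45, -5.29 and -5.56 on arrays 1 to 4 of A2780CBN. On the arrays of A2780CBNDXL the ratios were -3.72, -4.06, -4.00 and -4.22. The line was below its control on all 8 arrays, and the signals of line and control did not overlap. In A2780CBN the mean processed signal was 6.24 in the line and 253 in the control. As no array had the line well above background, the change in A2780CBN is given as at least 11.1-fold lower. In A2780CBNDXL, where 3 of the 4 arrays measured the line, the ratio was -4.00 ± 0.21 (SD of 4 arrays), or 16.0-fold lower. With a second SEMA3E probe the line was at background in both, and SEMA3E was at least 5.85-fold lower in A2780CBNDXL, while in A2780CBN the probe was too dim to be tested.

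SEMA3A, the collapsing cue that signals through neuropilin 1 and A-type plexins, had log2 ratios of -3.01, -2.45, -3.22 and -2.22 in A2780CBN. In A2780CBNDXL the ratios were -1.11, -1.91, -1.95 and -2.20. All 8 arrays had the line lower, and array 1 of A2780CBNDXL was closest to 0. The line was not well above background in A2780CBN, where SEMA3A was at least 4.69-fold lower, and in A2780CBNDXL the ratio was -1.80 ± 0.47.

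SEMA3D, a further secreted semaphorin, had log2 ratios of -2.38, -2.72, -2.16 and -2.56 in A2780CBN. In A2780CBNDXL it had -0.55, -1.52, -0.75 and -1.83. The ratios of the second line followed the labelling, as the forward arrays lay at -0.65 in the mean and only the reverse arrays were below -1. The mean was -2.45 ± 0.24 in A2780CBN, with the line above background on 2 arrays, and -1.16 ± 0.61 in A2780CBNDXL.

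These 3 genes are neighbours on the long arm of chromosome 7, and their probes lie 4.14 (SEMA3E), 3.54 (SEMA3A) and 2.51 (SEMA3D) megabases from the probe of ABCB1, the drug efflux pump. The log2 ratio of ABCB1 itself was 0.02 (A2780CBN) and 5.27 (A2780CBNDXL). SEMA3C, whose probe lies 6.76 megabases from it on the same arm, had a ratio of -0.25 in A2780CBN, which did not pass, and of -0.38 in A2780CBNDXL, where it was too dim to be tested. The windows of 250 bases before the start of SEMA3D and of SEMA3E are shown because both genes passed the rule as lower in both lines, each line against its own control. They are from RefSeq on GRCh38.p14, both on the minus strand, in lower case with each CG in capitals.
SEMA3D, chr7:85187057-85187306: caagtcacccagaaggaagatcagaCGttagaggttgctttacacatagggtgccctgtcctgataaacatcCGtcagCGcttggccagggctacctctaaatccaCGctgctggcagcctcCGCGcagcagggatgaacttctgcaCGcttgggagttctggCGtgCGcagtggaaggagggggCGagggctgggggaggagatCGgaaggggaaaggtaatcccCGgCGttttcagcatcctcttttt
SEMA3E, chr7:83649140-83649389: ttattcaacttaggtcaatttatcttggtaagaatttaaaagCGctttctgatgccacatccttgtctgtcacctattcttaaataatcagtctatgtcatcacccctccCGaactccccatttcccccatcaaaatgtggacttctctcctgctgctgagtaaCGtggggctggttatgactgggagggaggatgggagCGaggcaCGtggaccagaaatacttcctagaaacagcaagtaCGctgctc
The SEMA3D window holds 13 CG and the SEMA3E window, at the more upstream of its 2 listed starts, holds 6, where the median of all 35116 such windows is 11. Neither holds GGGCGG, the letters of a GC box, on either strand, which 42.6% of all windows hold. Of the 74 windows of members 73.0% hold it, and their median is 17 CG. Windows were listed for 47 of the 53 members, and SEMA3A was not among them.

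Of the 4 membrane-bound class 6 semaphorins, SEMA6A and SEMA6D were changed in A2780CBN and SEMA6D in A2780CBNDXL. SEMA6D, a transmembrane ligand that binds A-type plexins, had log2 ratios of -3.02, -3.70, -3.29 and -3.65 in A2780CBN. In A2780CBNDXL it had 6.44, 5.39, 6.27 and 5.32. Every array of the first line was lower and every array of the second was higher than its control. The processed signal was 5.61 in A2780CBN, which was not well above background, and 61.2 in its control, so that SEMA6D was at least 2.69-fold lower. In A2780CBNDXL the signal was 12759 in the line and 225 in the control, and the ratio was 5.86 ± 0.58, or 57.9-fold higher. A second probe, upstream of the first at chr15:45843465-45843524, had a ratio of 3.56 ± 1.02 in A2780CBNDXL, with the control above background on 1 array, and was not above background in A2780CBN.

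SEMA6A, the ligand of plexins A2 and A4, was lower in A2780CBN at -1.69 ± 0.49 and had a ratio of 0.30 ± 0.17 in A2780CBNDXL. All 3 of its probes passed as lower in A2780CBN, and one of them passed as higher in A2780CBNDXL at 1.04 ± 0.35. SEMA6B and SEMA6C had ratios from -0.06 to 0.57 and did not pass in either line. None of the class 4 semaphorins passed, with ratios of -0.05 to 0.90 (A2780CBN) and 0.00 to 0.70 (A2780CBNDXL) for the 5 tested. SEMA4F, at 0.90 ± 0.10 in A2780CBN, was just under the limit, and its dimmer probe just over it at 1.01 ± 0.23. SEMA5A, SEMA5B and SEMA7A, the ligand of PLXNC1, stayed at background on every array.

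Among the semaphorin receptors, 6 of the 9 plexins were tested in each line. PLXNC1 was the one plexin changed in A2780CBN, where 12.6% of all genes tested were changed. PLXNA3, PLXNB2, PLXNC1 and PLXND1 were changed in A2780CBNDXL, where the share of all genes was 16.9%. PLXNC1, the receptor of SEMA7A, had log2 ratios of 1.24, 2.25, 1.68 and 2.07 in A2780CBN. In A2780CBNDXL it had -2.67, -2.49, -3.27 and -2.42. The line was above its control on all 4 arrays of A2780CBN and below it on all 4 arrays of A2780CBNDXL. The mean was 1.81 ± 0.45, or 3.51-fold higher, in A2780CBN. In A2780CBNDXL the line was not well above background, and PLXNC1 was at least 1.73-fold lower, a bound under the 2-fold limit. A second PLXNC1 probe was at least 1.82-fold higher in A2780CBN, with the control at background, and was not above background in A2780CBNDXL.

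PLXND1, the receptor of SEMA3E, was 3.47-fold lower in A2780CBNDXL, at -1.79 ± 0.07, and had 0.16 ± 0.09 in A2780CBN. Both partners of this pair were thus lower in A2780CBNDXL, and in A2780CBN SEMA3E fell while PLXND1 did not pass. PLXNA3, which serves class 3 semaphorins with neuropilins, was 2.87-fold higher in A2780CBNDXL at 1.52 ± 0.36 and had 0.07 ± 0.74 in A2780CBN. PLXNB2, a receptor of class 4 semaphorins, had 1.09 ± 0.20 in A2780CBNDXL and 0.83 ± 0.57 in A2780CBN, just over and just under the limit. PLXNA1, a receptor of SEMA6D, was well above background in all channels and had -0.28 ± 0.13 and -0.17 ± 0.17. NRP1, the neuropilin that binds SEMA3A, had -0.49 ± 0.85 in A2780CBN and was too dim to be tested in A2780CBNDXL, and NRP2 was too dim in both.

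Among the ephrins, EFNA3 was changed in A2780CBN and EFNA1 and EFNB2 in A2780CBNDXL, all of them lower. EFNA3, a ligand of EphA receptors, had -1.31 ± 0.70 in A2780CBN and -0.07 ± 0.75 in A2780CBNDXL. Its ratio depended on the labelling, and the forward arrays of A2780CBN lay at -0.70. EFNA1, the main ligand of EPHA2, had -1.39 ± 0.26 in A2780CBNDXL and 0.01 ± 0.23 in A2780CBN, and a second probe stayed under the limit at -0.79 ± 0.11 in A2780CBNDXL. EFNB2, the ligand of EPHB4, had -1.97 ± 0.37 in A2780CBNDXL, or 3.91-fold lower, and 0.61 ± 0.12 in A2780CBN. Its direction in A2780CBNDXL turned against the control of the other line, at 1.36 ± 0.35. EFNA4, EFNB1 and EFNB3 had ratios from -0.63 to 0.91 over both lines and did not pass.

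Of the 9 EphA receptors 5 were tested in A2780CBN and 3 in A2780CBNDXL. EPHA3, a receptor kinase bound best by EFNA5, was the one member higher in both lines. It had log2 ratios of 1.61, 1.14, 1.74 and 1.03 in A2780CBN and of 1.58, 0.61, 1.60 and 0.62 in A2780CBNDXL. The line was above the control on all 8 arrays, and in A2780CBNDXL the reverse arrays lay at 0.61 in the mean, under the limit. EPHA3 was 2.60-fold higher in A2780CBN, at 1.38 ± 0.35, and 2.15-fold higher in A2780CBNDXL, where the SD of the log2 ratio was 0.57. A second EPHA3 probe gave 1.74 ± 0.05 and 0.96 ± 0.43, and one more, for the shorter transcript that lacks the kinase part, was not above background in any channel.

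EPHA5, a receptor of ephrin-A ligands known mainly from neurons, had log2 ratios of -3.29, -2.94, -3.03 and -2.60 in A2780CBN. In A2780CBNDXL the ratios were -2.60, -3.36, -3.08 and -2.88. The values of the lines overlapped, and neither line was well above background on any array. EPHA5 was at least 1.82-fold lower in A2780CBN and at least 2.04-fold lower in A2780CBNDXL, with control signals of 40.2 and 45.6. EPHA7, a related receptor, had ratios of -4.44, -4.30, -4.13 and -4.42 in A2780CBN, where it was at least 5.35-fold lower. In A2780CBNDXL the ratios were -1.24, -4.87, -4.74 and -4.96, and the probe was not tested because the control was above background on 3 arrays only. Array 1 stands apart there, and without it EPHA7 passed the rule in A2780CBNDXL too. The second EPHA7 probe passed the rule in both lines with the line at background on all arrays, and its bounds were at least 1.65-fold lower in A2780CBN, under the 2-fold limit, and at least 2.34-fold lower in A2780CBNDXL. EPHA2, the receptor of EFNA1, had -0.51 ± 0.27 and -0.63 ± 0.23 and did not pass.

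Each line had 4 of the 5 EphB receptors tested. Of these, 1 was changed in A2780CBN and 3 in A2780CBNDXL, beside 12.6% and 16.9% of all genes tested. Whether the family as a whole differs between the lines was not tested. EPHB2 was changed in A2780CBN and EPHB3, EPHB4 and EPHB6 in A2780CBNDXL, all of them higher, and EPHB1 was too dim in both. EPHB2, a receptor kinase of ephrin-B ligands, had log2 ratios of 2.43, 2.57, 2.07 and 2.40 in A2780CBN and of -1.50, -0.65, -1.18 and -0.30 in A2780CBNDXL. It was higher on every array of A2780CBN, at 2.37 ± 0.21 or 5.17-fold. In A2780CBNDXL its ratio of -0.91 ± 0.53 was negative on every array but under the limit, with the line above background on 1 array.

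EPHB6, a family member whose kinase domain is inactive, had log2 ratios of 4.49, 4.14, 4.41 and 4.37 in A2780CBNDXL and of 0.72, 0.26, 0.62 and 0.40 in A2780CBN. The values of A2780CBNDXL all lay far above those of A2780CBN. The signal was 1632 in A2780CBNDXL and 80.5 in its control, a 20.4-fold difference at 4.35 ± 0.15. EPHB3 had 1.52 ± 0.19 in A2780CBNDXL, or 2.87-fold, and 0.36 ± 0.06 in A2780CBN. EPHB4, the receptor of EFNB2, had 1.01 ± 0.72 and 0.26 ± 0.16. It was at the limit, lay at 0.38 on the forward arrays of A2780CBNDXL, and no longer passed without array 3 of that line.

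**Figure D3:**
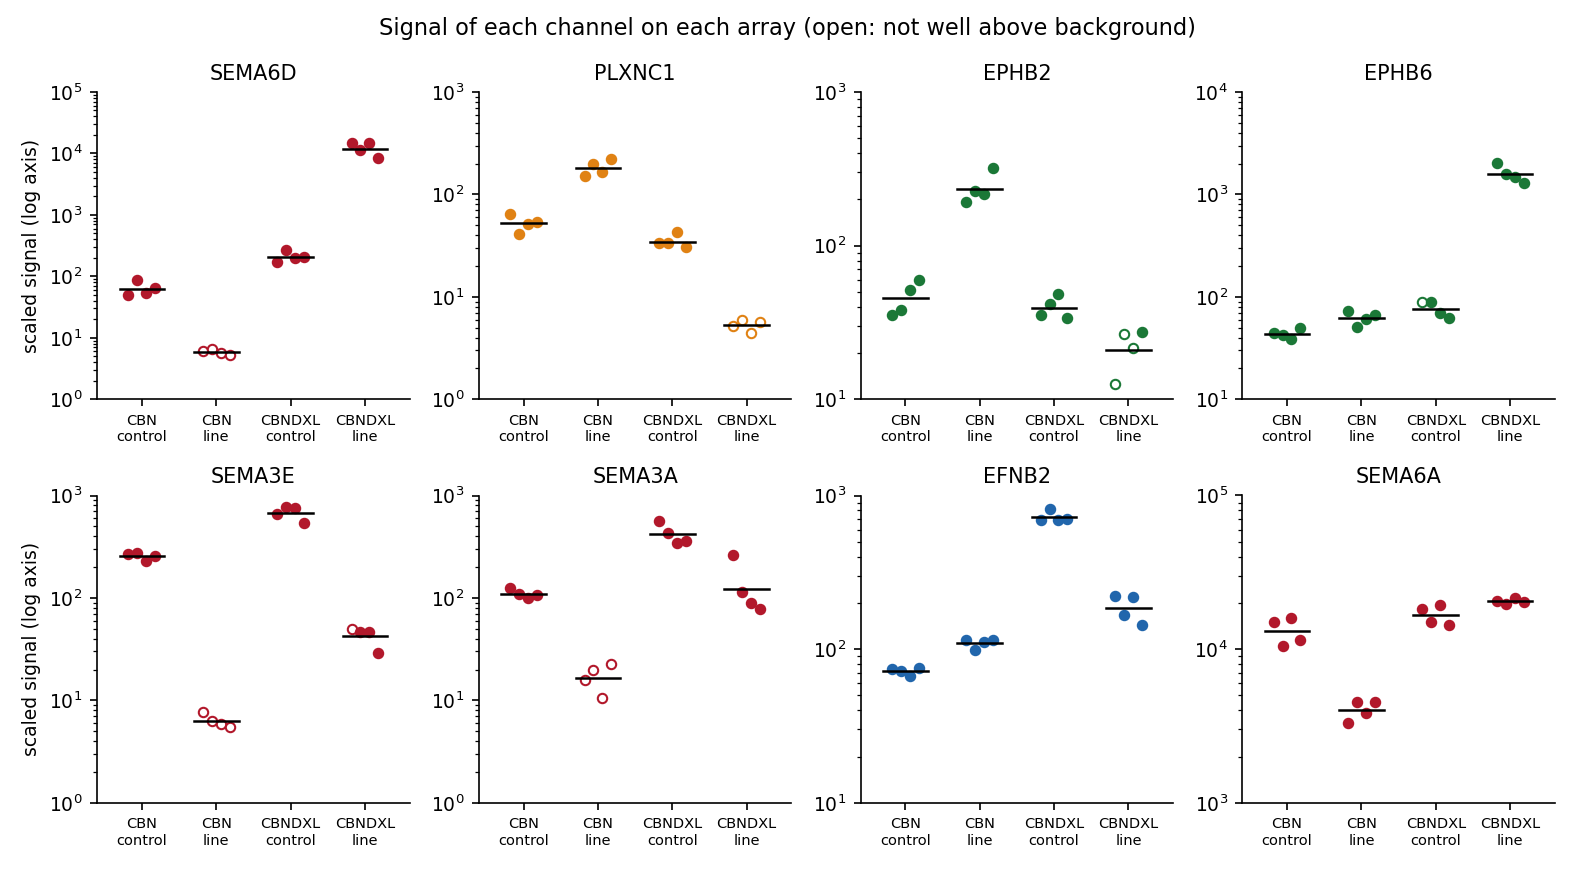
Signal of the control and of the resistant line on each of the 4 arrays of A2780CBN (CBN) and of A2780CBNDXL (CBNDXL), after scaling between arrays, on a log axis of its own for each of 8 members. Bars are geometric means and open circles are spots that were not well above background. SEMA6D falls in A2780CBN and rises in A2780CBNDXL, and the control of A2780CBNDXL is above that of A2780CBN for EFNB2, SEMA3A and SEMA3E.

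A ratio moves with its control as well as with its line, so the channels were also compared directly, after scaling between arrays by the Aquantile method and matched on slide and labelling. The controls differed by at least 2-fold in 6 of 38 members tested, or 15.8% beside 4.68% of all genes tested. EFNB2 was 3.33 ± 0.14 (SD of 4 pairs of arrays) higher on the log2 scale in the control of A2780CBNDXL than in that of A2780CBN, or 10.0-fold. SEMA3A was higher in the same control by 1.93 ± 0.19, SEMA6D by 1.73 ± 0.09 and SEMA3E by 1.39 ± 0.27. SEMA3D was 2.82-fold higher there, with an SD of 0.75 on the log2 scale, and PLXNB1 was lower at -1.04 ± 0.57. All of these but PLXNB1 were also changed in A2780CBNDXL against its control.

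For EFNB2, SEMA3A and SEMA3D the direction in A2780CBNDXL rested on its own control. Set against the control channel of the A2780CBN arrays, A2780CBNDXL had a log2 ratio of 1.36 ± 0.35 for EFNB2, of 0.14 ± 0.65 for SEMA3A and of 0.33 ± 0.18 for SEMA3D. SEMA3E stayed lower against that control at -2.61 ± 0.38, and SEMA6D and EPHB6 stayed higher at 7.59 ± 0.66 and 5.17 ± 0.34. In A2780CBN, set against the control of the A2780CBNDXL arrays, SEMA3A, SEMA3D, SEMA3E and SEMA6D were lower on all 4 pairs of arrays. No size is given for these, since the line was above background on no array for SEMA3A, SEMA3E and SEMA6D and on 2 for SEMA3D. Of the 26 ratios of changed members, 23 kept their sign and 21 kept both sign and size of at least 1 with the control of the other line. EFNA1 at -0.84 ± 0.50 and EPHB4 at 0.53 ± 0.11, both in A2780CBNDXL, kept their sign and fell under that size.

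The resistant lines themselves differed by at least 2-fold in 11 of 34 members tested, or 32.4% beside 16.5% of all genes tested. SEMA6D was at least 519-fold higher in A2780CBNDXL than in A2780CBN, where it was not well above background. SEMA3A was at least 5.15-fold higher in A2780CBNDXL. PLXNC1 was at least 9.14-fold higher in A2780CBN, since here A2780CBNDXL was not well above background. EPHB6 was higher in A2780CBNDXL by 4.66 ± 0.29, SEMA3D by 2.79 ± 0.42 and SEMA6A by 2.34 ± 0.24 on the log2 scale. The value of SEMA3D is no exact size, since A2780CBN was above background on 2 arrays only. EPHB2 was lower in A2780CBNDXL at -3.48 ± 0.35, which is no exact size since that line was above background on 1 array only. PLXND1 was lower in A2780CBNDXL at -1.38 ± 0.23 and PLXNB1 at -1.15 ± 0.05, while PLXNA3 and EFNA3 were higher by 1.03 ± 0.35 and 1.01 ± 0.29. EFNB2, in contrast, differed by 0.75 ± 0.31 between the lines, less than between their controls.

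**Figure D4:**
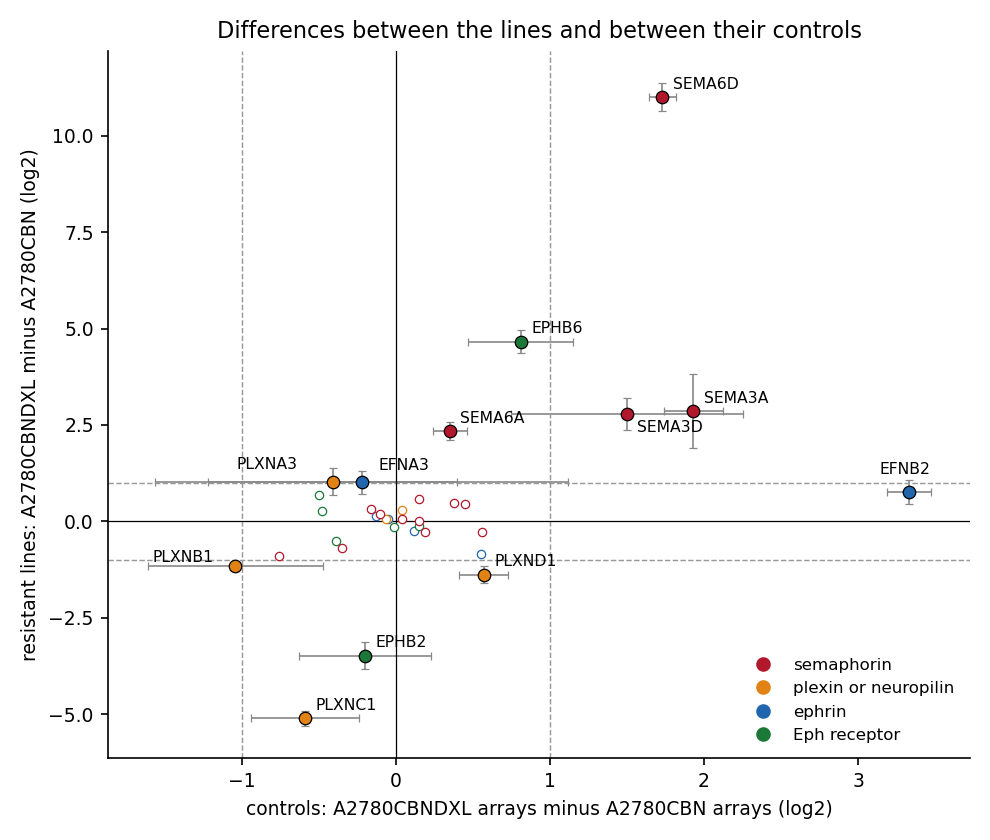
Log2 difference of A2780CBNDXL minus A2780CBN between the resistant lines (y axis) and between their controls (x axis) for the members tested in both comparisons. Filled and named members passed the 2-fold rule in at least one of them, error bars are the SD of 4 pairs of arrays, and dashed lines mark a difference of 1 in size. EFNB2 lies at 3.33 for the controls and 0.75 for the lines. EPHB2, EPHB6, PLXNA3, PLXNC1, PLXND1, SEMA6A and EFNA3 passed the rule between the lines and not between the controls.

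The partners of these systems were counted in 6 lists with 109 genes on the array. In A2780CBN 14 of 84 tested genes were changed, 8 higher and 6 lower, and in A2780CBNDXL 18 of 81, 10 higher and 8 lower, which is 16.7% and 22.2% beside 12.6% and 16.9% of all genes. Their median log2 ratio was 0.04 and 0.07. The list of plexin GTPase signalling had none of 14 changed in A2780CBN and 3 in A2780CBNDXL, all higher, the latter 21.4% beside 16.9% of all genes. Among them RAP1B, a substrate of the plexin GTPase-activating domain, had 1.35 ± 0.37 and GIPC1, an adaptor of plexins and neuropilins, 1.60 ± 0.73. Of the semaphorin co-receptors FLT4 was lower in A2780CBN, and ERBB2 and ITGA1 were higher in A2780CBNDXL.

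The list of semaphorin effectors holds CRMP proteins that bind tubulin, MICAL oxidases that act on actin, and other genes such as FYN. In A2780CBN 5 of its 15 tested genes were changed, FYN among them, or 33.3% beside 12.6% of all genes. None of 13 passed in A2780CBNDXL, where 16.9% of all genes did. DPYSL5 and MICAL2, both changed in A2780CBN, were too dim to be tested in A2780CBNDXL, where DPYSL5 was at least 2.09-fold lower. DPYSL3 (CRMP4) was lower at -2.71 ± 0.28 and DPYSL5 (CRMP5) higher at 2.01 ± 0.50 in A2780CBN. Among the exchange factors and adaptors of Eph receptors, VAV3 fell in both lines, by at least 67.4-fold in A2780CBN and with a log2 ratio of -7.33 ± 1.18 in A2780CBNDXL, where the line was above background on 1 array only. SH2D3C, an adaptor that binds EphB receptors, was higher in both, by at least 2.49-fold in A2780CBN and at 1.58 ± 0.35 in A2780CBNDXL, where the control was above background on 1 array. CHN1, the Rac GTPase-activating protein that acts downstream of EPHA4, was lower in A2780CBNDXL at -2.64 ± 0.32. LYN, a Src-family kinase of ephrin reverse signalling, was lower in A2780CBNDXL at -2.41 ± 0.09.

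Of the other guidance systems, ROBO2, a receptor of SLIT ligands, was higher in both lines at 2.46 ± 0.28 and 2.45 ± 0.13. NTNG1, a membrane-anchored netrin relative, was lower in both, by at least 6.41-fold in A2780CBN and at least 7.39-fold in A2780CBNDXL. NTNG2, its paralog, was higher in A2780CBN at 1.09 ± 0.50 and lower in A2780CBNDXL at -1.14 ± 0.29.

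Per channel, 59.8 to 67.5% of spots cleared the background, with a median signal of 2.28 to 3.52 times that of their surroundings. Of 7 epithelial markers 3 to 5 were above background on all 4 arrays of a channel, with KRT8, KRT18 and MUC1 above it throughout and KRT7 and CDH1 on no array. Of 5 ovarian carcinoma markers PAX8 and FOLR1 were above background throughout and WT1, MUC16 and MSLN on no array. None of 4 endothelial markers was above background on all 4 arrays of a channel, and of 5 leukocyte markers 3 or 4 were, but PTPRC, which defines these cells, was above it on no array. Of 5 fibroblast markers 4 or 5 were above background. The summed signal of the 5 fibroblast genes was 37660 to 46932 in A2780CBN against 11911 to 18281 in its control, and 44913 to 61761 in A2780CBNDXL against 15834 to 22256. The summed signal of the 7 epithelial genes was also higher, at 4136 to 4509 against 2515 to 2625 in A2780CBN. In A2780CBNDXL it was 3858 to 4999 against 2621 to 3291. The ovarian carcinoma and endothelial sums overlapped with those of the controls in both lines. The leukocyte sum overlapped in A2780CBN and was lower in A2780CBNDXL. The part of these differences in the ratios of the members was not tested.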

How the data were processed

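Agilent whole human genome arrays of 60-base probes were scanned and read by the authors with Agilent Feature Extraction (10.7.1.1 for slide 1, 10.7.3.1 for slide 2), and the processing notes also name Partek. The deposited values are the intensity of each spot, background-subtracted and dye-normalized within the array, with a surrogate for signals near background. Probe positions are on NCBI36.

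Here control spots were left out and spots of a probe were averaged. The log2 ratio of the processed intensity, resistant line over control, was averaged over each labelling direction and then over both, and the brightest probe stood for a gene. Bounds compare the brighter channel with the lowest signal well above background. Channels of different arrays were scaled with Aquantile (limma 3.58.1, R 4.3.3). Each line is 1 pooled RNA sample on 4 technical arrays, so the fit across arrays by limma and the analysis of variance of the methods were run as alternatives only. The number of arrays limits the precision. Scripts ran in Python 3.11.15 and were tested on simulated data.

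The accession of the standing probe matched RefSeq for 52 of 53 members, all but PLXNC1. Every member that passed the 2-fold rule is named, with values on each array where it passed in both lines or had a ratio of at least 2 in size, and others where their probes disagree in sign, they are dim, or they are a partner of a named member. The members and lists were chosen with earlier results of these data known. Alternatives were other background corrections, probe and signal rules, fold limits, single slides, labelling directions or arrays left out, and the control of the other line. One partner gene is not reported here.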

Additional observations from a re-analysis of the deposited data

Results flagged for a closer look

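The log2 ratio had opposite signs in the lines on every array for 6 of the 34 members tested in both. The share of all genes with such signs was not counted, so whether 6 is many is not known. The difference of A2780CBNDXL minus A2780CBN was 9.27 for SEMA6D, 2.00 for SEMA6A, -4.52 for PLXNC1, -3.28 for EPHB2, -2.58 for EFNB2 and -1.95 for PLXND1. The values of SEMA6D and PLXNC1 are no exact sizes, since the resistant channel was above background on no array for SEMA6D in A2780CBN and for PLXNC1 in A2780CBNDXL. For EPHB2 in A2780CBNDXL that channel was above background on 1 array. With 1 RNA sample per line these differences were not tested. For EFNB2 the controls differed by 3.33 and the lines by 0.75 on the log2 scale. For EPHB2, PLXNC1, SEMA6A and PLXND1 the lines differed by more than 2-fold and the controls did not pass that limit. For SEMA6D both the lines and the controls differed by more than 2-fold.

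NRP1 had a ratio of -1.76 on array 2 of A2780CBN, far from the other 3 arrays, which lay between -0.23 and 0.02. It was 1 of 72 groups of 4 arrays examined, and chance flags about 1 in 20 such groups.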

How the results depend on the processing

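Normexp with an offset of 50 and loess, which pulls ratios of dim probes toward 0, left 2 members changed in A2780CBN and 9 in A2780CBNDXL, 606 and 1176 of all genes, 3 and 11 partner genes, and 1 member changed in the same and 0 in opposite directions in both lines. With a signal above background in both channels the counts were 5 members and 8 partner genes in A2780CBN, with 1 member in the same and 0 in opposite directions. Counts under the settings of this paragraph are given without shares of the genes tested. Background-subtracted, median-centred signals gave 3 in the same and 1 in opposite directions, since negative signals have no log, and counting probes in place of genes gave 18 probes in A2780CBN. A limit of 1.5-fold gave 17 members in A2780CBN, 4860 and 5699 of all genes, 29 and 39 partner genes, 8 members in the same and 4 in opposite directions. A limit of 3-fold gave 8 members in A2780CBNDXL, 1121 and 1467 of all genes, 7 and 6 partner genes, and 3 in the same direction. Forward arrays alone gave 4 in opposite directions and reverse arrays alone 30 partner genes in A2780CBNDXL. With the control of the other line, the mean changed sign in A2780CBNDXL for EFNB2 (1.36), SEMA3A (0.14) and SEMA3D (0.33), and the cause was not tested. Only EFNB2 was at least 1 in size, and the pairs of arrays of SEMA3A differed in sign, with an SD of 0.65.

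Leaving out 1 array gave 11 to 12 members in A2780CBN and 14 to 16 in A2780CBNDXL, 2283 to 2330 and 2899 to 3189 of all genes, 13 to 14 and 17 to 20 partner genes, 5 to 6 members in the same and 2 in opposite directions, 9 to 12 members between the lines and 5 to 7 between the controls. All 26 ratios of changed members kept their sign under normexp, and 11 kept a size of at least 1. With a single labelling direction 47 of 52 ratios kept that size, and EFNA3, EPHA3, EPHB4, PLXNB2 and SEMA3D were those under it. The limma and variance fits, which cover array error only, changed no call of a member. No paired analysis was possible because each line is 1 sample.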

Other observations

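Several second probes of members gave values that differ from the standing probe. The second EFNB3 probe passed the 2-fold rule in A2780CBN at -1.05 ± 1.71 (SD of 4 arrays), but array 4 alone, at -3.61, lay below -1, and the standing probe had 0.41 ± 0.44. EFNA1 and PLXND1 had tested probes of opposite sign in A2780CBN and SEMA4C in A2780CBNDXL, which is 3 of 13 genes with several tested probes in the first line, EFNB3 included, and 1 of 12 in the second. The brightest NRP2 probe, for a neuropilin that binds SEMA3F, had a ratio of 2.18 ± 0.78 in A2780CBNDXL, with the line above background on 2 arrays and the control on none.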
